A study of Sus scrofa domesticus with 2 samples.

Results

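The genes described are 10 smooth muscle contractile genes, ACTA2, ACTG2, TAGLN, CNN1, LMOD1, TPM2, TPM1, MYL9, MYH11 and DES. They were chosen as known smooth muscle genes that could be found by name, and all 10 were named among the 22804 genes counted in both libraries. The question put to each was whether it was general to the cultured cells or confined to those with more COL1A1 and COL1A2 UMIs than PECAM1 UMIs. A UMI (unique molecular identifier) tags 1 captured transcript, so the counts are of molecules. The samples were primary endothelial cells (ECs) of the domestic pig, grown from the aorta in 1 library and from the lung in the other. Cells were released with collagenase, from the aorta near to the lung and from a perfused piece of lung, and were kept in the same growth medium with 10% fetal calf serum. No treatment was named for either library. Neither the passage nor the number of donor animals was given in the sources used here.

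Smooth muscle contracts when myosin filaments pull on actin filaments, after phosphorylation of the regulatory light chain of myosin. Tropomyosins lie along the actin filament, calponin and transgelin bind it, leiomodin starts new filaments, and desmin filaments tie the contractile units together. The same actin-based machinery exists in every cell in non-muscle forms, encoded by other genes or by other transcripts of the same genes. Many smooth muscle genes are switched on by serum response factor with myocardin or its relatives, which bind a short element called the CArG box. ACTA2 and TAGLN are widely used as mesenchymal markers when ECs are thought to change into mesenchymal cells. Pericytes, myofibroblasts and cultured fibroblasts express several of these genes too.

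The CArG box is CC, then 6 bases that are A or T, then GG. It reads the same way on both strands, and it was looked for in the 300 bases before the 5′ end of 9 of the members in the NCBI RefSeq annotation of Sscrofa11.1, which is the build of the counts. A looser form, with 1 G or C among the 6 central bases, was counted apart. The exact box was found before MYL9 and the looser form before ACTA2 and ACTG2, so 3 of these 9 members (33.3%) had either form, against 8.49% of 19527 protein-coding genes. The exact box alone was found before 1 of the 9 and before 1.59% of all genes. These 3 windows are shown because they are the ones that hold the element. They lie at chr14:100886733-100887032 (minus strand), chr3:69121543-69121842 (minus strand) and chr17:39787865-39788164 (plus strand), and are written 5′ to 3′ towards the gene. Capitals mark a CArG box in its exact form for MYL9 and in its looser form for ACTA2 and ACTG2.
ACTA2: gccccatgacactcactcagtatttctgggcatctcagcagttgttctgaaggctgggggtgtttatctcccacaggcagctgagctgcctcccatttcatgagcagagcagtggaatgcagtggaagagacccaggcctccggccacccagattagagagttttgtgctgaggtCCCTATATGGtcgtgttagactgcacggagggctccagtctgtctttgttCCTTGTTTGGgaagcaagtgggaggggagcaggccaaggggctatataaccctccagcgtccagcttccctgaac
ACTG2: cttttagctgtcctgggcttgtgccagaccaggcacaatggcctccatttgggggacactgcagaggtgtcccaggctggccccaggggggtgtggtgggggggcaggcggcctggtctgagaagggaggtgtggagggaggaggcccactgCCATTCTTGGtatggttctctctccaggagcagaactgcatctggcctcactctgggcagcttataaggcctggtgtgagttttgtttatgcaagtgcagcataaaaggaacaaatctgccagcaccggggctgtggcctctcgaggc
MYL9: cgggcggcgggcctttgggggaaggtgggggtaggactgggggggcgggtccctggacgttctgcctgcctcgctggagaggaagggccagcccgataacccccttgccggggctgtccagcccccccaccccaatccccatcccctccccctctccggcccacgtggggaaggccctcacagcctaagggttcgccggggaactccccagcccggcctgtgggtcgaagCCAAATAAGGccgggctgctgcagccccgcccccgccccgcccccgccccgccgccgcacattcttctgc

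In ACTA2 the boxes began 125 and 75 bases before the 5′ end, in ACTG2 148 bases and in MYL9 70 bases. No box of either form was in the windows of CNN1, LMOD1, TPM2, TPM1, MYH11 and DES, which says only that these letters were not there. ACTA2 is on chromosome 14, CNN1 on 2, LMOD1 on 10, MYL9 on 17 and DES on 15. TPM1 and TPM2 are both on chromosome 1 and ACTG2 and MYH11 both on chromosome 3, at a distance from each other. RefSeq gives 24 transcripts for TPM1, among them muscle and non-muscle forms, and counts per gene do not separate them.

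A cell was within the limits stated in the methods if it had over 200 but below 5000 genes and if 12 mitochondrial genes held less than 30% of its UMIs. In the aorta library 246 of 1185 cells were within them, and in the lung library 5683 of 5946. In the aorta library 709 further cells passed the other limits but had 5000 genes or more, and they are called deep here, with a median of 58476 UMIs against 4691 in the aorta cells within limits. The paper gives its upper limit on genes as a cut for doublets, and that rule would leave the deep cells out. The lung library had only 26 deep cells, and its cells within limits had a median of 9453 UMIs. The libraries shared 5 barcode sequences. Each cell was put on the collagen side where its COL1A1 and COL1A2 UMIs outnumbered those of PECAM1, an adhesion molecule of ECs, and on the PECAM1 side where they were fewer. The collagen side held 57 aorta cells within limits, 128 deep aorta cells and 349 lung cells, and the PECAM1 side 123, 581 and 5286. In the aorta within limits 63 cells had no UMI of these 3 genes. Of the 246 aorta cells within limits, 110 had under 1% mitochondrial UMIs, against 0 of the deep cells and 39 of 5683 lung cells. Levels and ratios between sides are therefore given for the deep aorta cells beside the cells within limits.

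The sides were checked with markers that did not make them. Of 10 endothelial markers, the 8, 8 and 7 that passed 20 CPM in the aorta within limits, the deep aorta and the lung were all under 0.5 on the collagen side relative to the PECAM1 side. VWF had 0 UMIs in the aorta within limits, and KDR was at or near 0 in all 3 groups of cells, although both define ECs in tissue. Of 8 pericyte markers only 3 passed 20 CPM in each group of cells. They were PDGFRB, CSPG4 and ANPEP, which mark pericytes among other mesenchymal cells, and were at least 10 times higher on the collagen side in each. RGS5, a pericyte gene, had 0 UMIs there in the aorta. KCNJ8 and ABCC9 had 0 UMIs there in the aorta within limits. The 9 fibroblast markers were mixed. Of the 8, 6 and 6 that passed 20 CPM, 2, 3 and 4 were at least 10 times higher on the collagen side. In contrast, 3, 1 and 1 were at 0.5 or less there relative to the PECAM1 side. COL3A1 was in 337 of 581 PECAM1-side cells of the deep aorta (58.0%). WT1, taken as a mesothelial marker, was at 32.0 CPM on the collagen side of the lung and 0.0960 CPM on its PECAM1 side. Smooth muscle cells, pericytes and fibroblasts cannot be told apart by this split. Of 7 genes of striated muscle, such as ACTC1 and MYH7, none reached 20 CPM on either side.

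A level is the sum of a gene's UMIs on a side, per 1000000 UMIs of that side (CPM), with exact Poisson 95% intervals. Ratios between sides carry exact conditional 95% intervals, and shares of cells carry Clopper-Pearson intervals. All of them cover counting error only, and with 1 library a tissue no difference was tested. A ratio of 10 or more towards the collagen side is called confined, 2 to 10 graded, and within 2-fold either way general, for genes at 20 CPM or more on either side.

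Both smooth muscle actins were confined in all 3 groups of cells. ACTA2, the alpha actin of vascular smooth muscle, was at 1521 CPM (1495 to 1547) on the collagen side and 2.80 CPM (2.27 to 3.41) on the PECAM1 side of the deep aorta cells, a ratio of 543 (445 to 671). In the lung it was at 1151 CPM (1118 to 1185) against 4.68 CPM (4.11 to 5.31), a ratio of 246 (216 to 281). In the aorta cells within limits it was at 1254 CPM (1144 to 1372) against 48.4 CPM (36.9 to 62.3), a ratio of 25.9 (19.8 to 34.5). The summed levels of the collagen sides thus lay between 1151 and 1521 CPM. In the aorta within limits that sum joined 31 cells under 1% mitochondrial UMIs, at 1890 CPM, to 26 others at 806 CPM. The PECAM1 side of the aorta within limits stood more than 10-fold above the other 2 PECAM1 sides. ACTG2, the gamma actin best known from visceral smooth muscle, was at 211 CPM (201 to 221) against 0.289 CPM (0.138 to 0.531) in the deep aorta, and in the lung at 198 CPM (184 to 212) against 0.441 CPM (0.280 to 0.662). Its ratios were 731 (397 to 1527) and 448 (296 to 711), and 17.6 (9.13 to 37.1) in the aorta within limits, where 59 UMIs stood against 11.

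Of CNN1, LMOD1 and TAGLN, whose proteins bind or build the actin filament, only TAGLN was not confined. CNN1, which encodes the calponin of smooth muscle, was at 55.3 CPM (50.5 to 60.5) and 0.231 CPM (0.0997 to 0.455) on the sides of the deep aorta, a ratio of 240 (121 to 558). In the lung its ratio was 43.4 (33.1 to 57.5), from 59.1 and 1.36 CPM, and in the aorta within limits 24 UMIs stood against 1, a ratio of 78.5 with a wide interval (12.8 to 3230). LMOD1, the leiomodin of smooth muscle, had ratios of 67.2 (41.3 to 117) in the deep aorta and 33.0 (21.9 to 50.6) in the lung. In the aorta within limits its ratio of 19.6 rested on 12 against 2 UMIs and had an interval of 4.37 to 181. TAGLN, which encodes transgelin, was graded. The deep aorta had it at 1890 CPM (1861 to 1919) and 240 CPM (235 to 245). The aorta within limits had it at 1961 CPM (1823 to 2108) and 244 CPM (217 to 273), and the lung at 2207 CPM (2161 to 2254) and 958 CPM (949 to 966). The ratios were 7.87 (7.66 to 8.08), 8.05 (7.03 to 9.23) and 2.30 (2.25 to 2.36).

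**Figure D1:**
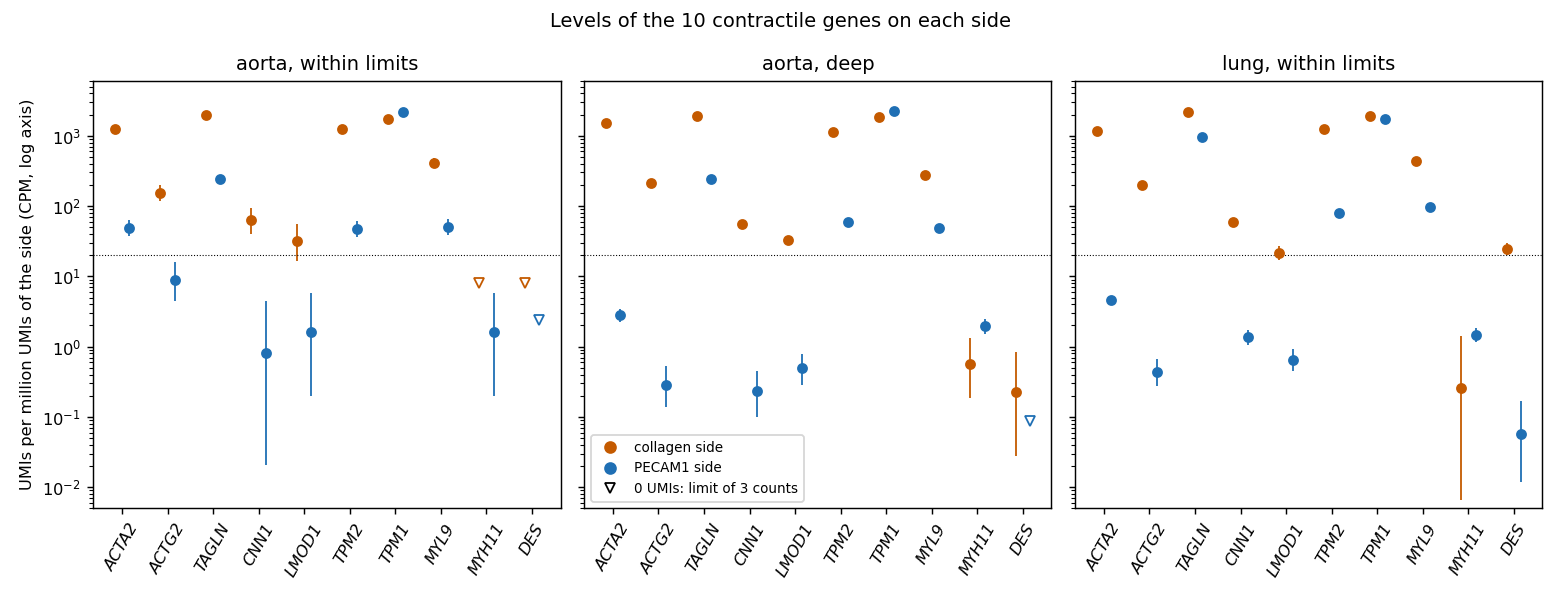
Level of each gene in CPM (log axis) on the collagen side (orange) and the PECAM1 side (blue) of the 3 groups of cells, as points with exact Poisson 95% intervals. Open triangles are genes with 0 UMIs, drawn at the level of 3 counts, and the dotted line is the floor of 20 CPM. Orange points lie far above blue ones for ACTA2, ACTG2, CNN1, LMOD1 and TPM2, while the pairs of TPM1 nearly coincide.

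The 2 tropomyosin genes went apart. TPM2, the beta tropomyosin, was at 1133 CPM (1111 to 1156) against 58.5 CPM (56.0 to 61.1) in the deep aorta. It was at 1264 CPM (1229 to 1300) against 79.8 CPM (77.4 to 82.3) in the lung. The aorta within limits had it at 1267 CPM (1156 to 1386) against 47.6 CPM (36.2 to 61.4). All 3 ratios were confined, at 19.4 (18.5 to 20.3), 15.8 (15.2 to 16.5) and 26.6 (20.3 to 35.5). TPM1, the alpha tropomyosin, was general. Its level was 1833 CPM (1804 to 1861) on the collagen side and 2254 CPM (2238 to 2270) on the PECAM1 side of the deep aorta, a ratio of 0.813 (0.799 to 0.827), and the ratio in the aorta within limits was 0.803 (0.736 to 0.875). For the lung these were 1879 CPM (1837 to 1923) and 1727 CPM (1716 to 1738), a ratio of 1.09 (1.06 to 1.11). TPM1 was thus slightly lower on the collagen side in the aorta and slightly higher there in the lung, with intervals that did not include 1 in either. Without possible doublets its ratio in the deep aorta was 0.95, but that cut left out 257 of the 581 PECAM1-side cells.

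Of the myosin genes, only the light chain was well measured. MYL9, the regulatory light chain of smooth muscle myosin, was graded. Its levels in the deep aorta were 275 CPM (264 to 286) and 48.1 CPM (45.8 to 50.5), and in the aorta within limits 412 CPM (350 to 482) and 50.8 CPM (39.1 to 65.0). In the lung they were 432 CPM (412 to 453) and 96.7 CPM (94.1 to 99.4). The ratios were 5.71 (5.36 to 6.08), 8.10 (6.01 to 11.0) and 4.46 (4.22 to 4.72). MYH11, the smooth muscle myosin heavy chain and the gene most specific to mature smooth muscle, never reached the floor. Its 5 collagen-side UMIs in the deep aorta made 0.572 CPM (0.186 to 1.34), below the 1.96 CPM (1.52 to 2.49) that 68 UMIs made on the PECAM1 side, a ratio of 0.292 (0.0918 to 0.715). In the lung 1 UMI stood against 76, at 0.256 CPM (0.00648 to 1.43) against 1.46 CPM (1.15 to 1.83), a ratio of 0.176 with an interval of 0.00439 to 1.01. In the aorta within limits MYH11 had 0 and 2 UMIs. These ratios are loose, since without possible doublets the one in the deep aorta was 0.489, and in the lung it was 0.103 as a mean over cells and 0.495 with no upper limit on genes. The collagen sides, with ACTA2 between 1151 and 1521 CPM, thus held at most 5 UMIs of MYH11.

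DES, which encodes desmin, was the only member that differed in kind between the libraries. It had 0 UMIs on both sides of the aorta within limits, where 0 counts allow up to 7.92 CPM on the collagen side, and 2 and 0 UMIs on the sides of the deep aorta. In the lung 97 UMIs on the collagen side made 24.8 CPM (20.1 to 30.3), against 3 UMIs and 0.0576 CPM (0.0119 to 0.168) on the PECAM1 side. That is a ratio of 431 (143 to 2128). On the collagen sides the lung stood 108-fold (29.2 to 908) above the deep aorta. The lung DES came from few cells, since 42 of 349 collagen-side cells had a UMI and 10 of them held at least 50% of the DES UMIs.

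**Figure D2:**
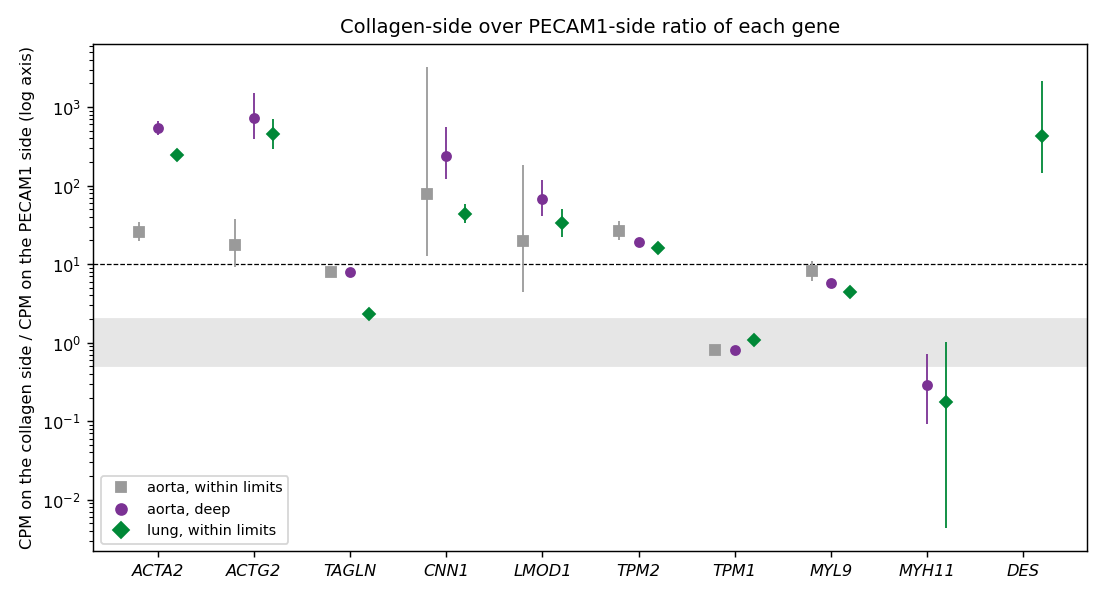
Ratio of the CPM on the collagen side to that on the PECAM1 side for each gene (log axis), with exact conditional 95% intervals, in the aorta within limits (grey squares), the deep aorta (purple circles) and the lung (green diamonds). The grey band is within 2-fold and the dashed line is 10-fold. Genes with 3 UMIs or fewer on both sides have no point. TPM1 lies in the band in all 3 groups, TAGLN and MYL9 between band and line, and ACTA2, ACTG2, CNN1, LMOD1 and TPM2 above the line.

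Of the 10 members 8, 8 and 9 reached the floor in the aorta within limits, the deep aorta and the lung. Of these 5, 5 and 6 were confined, against 1.17%, 1.43% and 1.82% of all genes at the floor. ACTA2, ACTG2, CNN1, LMOD1 and TPM2 were the 5 confined genes in each, and DES was the sixth in the lung. TAGLN and MYL9 were graded and TPM1 was general in all 3. Being within 2-fold was the usual state of a gene, found for 68.0%, 79.9% and 84.0% of all genes, so TPM1 was like most genes and the other members were not. The median ratio of the members at the floor was 18.6, 43.3 and 33.0, against 0.96, 1.02 and 0.99 over all genes. Because the members were picked as smooth muscle genes with earlier results of these data known, these counts describe them and were not tested.

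The share of cells with a UMI depends on depth. In the deep aorta collagen side, all 128 cells had TAGLN, TPM1, TPM2 and MYL9, 124 had ACTA2 (96.9%, 92.2 to 99.1), 103 had CNN1, 91 LMOD1 and 83 ACTG2 (64.8%, 55.9 to 73.1). After each cell was thinned to 5200 UMIs, ACTA2 was found in 116 of the 128 cells (90.6%, 84.2 to 95.1), and CNN1 and LMOD1 in 22.7% and 13.3%. In the lung, 318 of 349 collagen-side cells were deep enough for this, and ACTA2 was in 71.7% of them (66.4 to 76.6), CNN1 in 23.0% and LMOD1 in 12.3%. ACTG2 was in 47.7% (38.8 to 56.7) of the deep aorta cells and 39.6% (34.2 to 45.2) of the lung cells at that depth. So at equal depth ACTA2 was in a smaller share of the lung cells than of the deep aorta cells, and the shares of CNN1, LMOD1 and ACTG2 lay closer together. The intervals count cells within each library and hold no spread between cultures or animals. Whether the tissues differed in any of these genes was therefore not tested. Only 26 collagen-side aorta cells within limits were deep enough, and 80.8% of them (60.6 to 93.4) had ACTA2.

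On the PECAM1 side of the lung, TPM1 was in 99.3% of 5286 cells, TAGLN in 95.1% (94.5 to 95.7), MYL9 in 53.5% and TPM2 in 37.5%. ACTA2 was in 197 cells (3.73%, 3.23 to 4.27), CNN1 in 1.31%, LMOD1 in 0.643%, ACTG2 in 0.435% and MYH11 in 1.42%. For comparison, the 17 lung cells with at least 5 UMIs of leukocyte genes, at a median of 5824 UMIs against 9418, had ACTA2 in 1 cell (5.88%, 0.149 to 28.7), TAGLN in 4 (23.5%, 6.81 to 49.9) and TPM1 in 12 (70.6%, 44.0 to 89.7). Of these 17 cells 5 were themselves on the PECAM1 side and 1 on the collagen side. The interval of their ACTA2 share includes that of the PECAM1 side, and with 17 cells it is too wide to tell ACTA2 there from free RNA. Of the 197 cells, 189 had 1 or 2 ACTA2 UMIs, and 8 had 3 or more. Those 8 held 45 of the 244 ACTA2 UMIs (18.4%), at 504 CPM, with TAGLN at 1782, PECAM1 at 1278 and CDH5 at 179 CPM, and 7 of them had no collagen UMI. The share with TAGLN on the PECAM1 side lay above the interval of the leukocyte cells, whose 55 TAGLN UMIs were in 4 cells. In the deep aorta PECAM1 side, where no leukocyte cells were found, ACTA2 was in 81 of 581 cells (13.9%), and in 6 (1.03%, 0.380 to 2.23) after thinning. TAGLN was in 88.8% of those cells, and in 48.4% (44.2 to 52.5) after thinning, against 92.9% (92.1 to 93.6) of thinned lung cells.

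**Figure D3:**
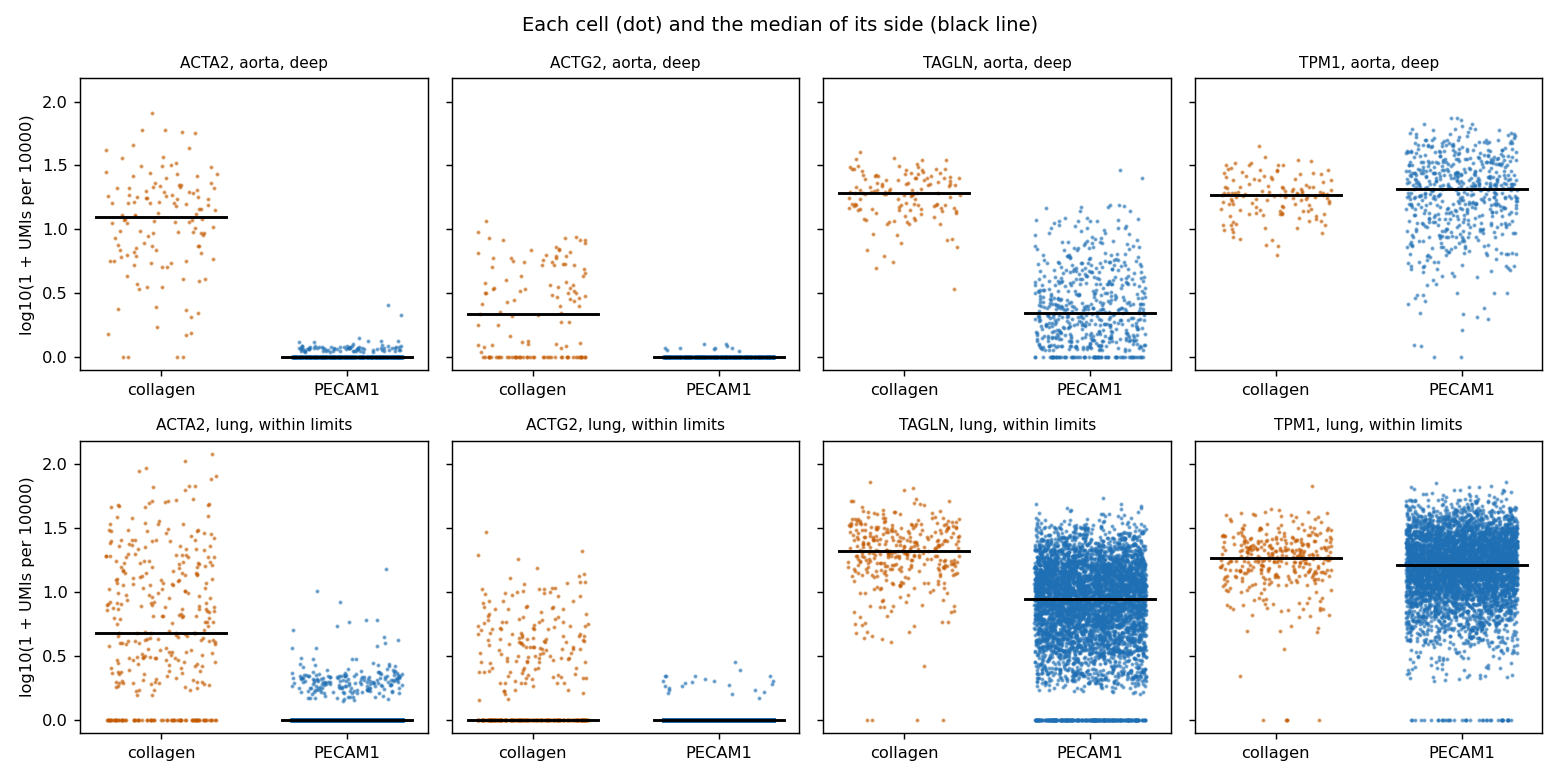
ACTA2, ACTG2, TAGLN and TPM1 in each cell of the collagen and PECAM1 sides, as log10 of 1 plus UMIs per 10000 UMIs of the cell, in the deep aorta (upper row) and the lung (lower row). Each dot is a cell and each black line the median of its side. ACTA2 and ACTG2 have a median of 0 on both PECAM1 sides, TAGLN lies lower in aorta than in lung PECAM1 cells, and the medians of TPM1 lie close together.

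The libraries were also set beside each other, within each side. On the PECAM1 side, TAGLN was 3.99-fold (3.90 to 4.08) and MYL9 2.01-fold (1.90 to 2.13) higher in the lung than in the deep aorta. Those were 2 of the 4 members that reached the floor there, against 4.28% of all genes past 2-fold either way. TPM2 was 1.36-fold (1.29 to 1.44) and TPM1 0.766-fold (0.759 to 0.774) in the lung relative to the deep aorta. Per cell of the PECAM1 side, TAGLN had a median of 783 CPM in the lung and 122 CPM in the deep aorta. On the collagen side, DES alone of 9 members passed 2-fold, against 4.04% of all genes. MYL9 was there 1.57-fold (1.47 to 1.67) higher in the lung. ACTA2 was 0.757-fold (0.731 to 0.783) and LMOD1 0.652-fold (0.505 to 0.834), and TAGLN, ACTG2, CNN1, TPM1 and TPM2 were all between 0.937-fold and 1.17-fold. Against the aorta cells within limits, TAGLN on the PECAM1 side was 3.93-fold (3.51 to 4.42) and MYL9 1.90-fold (1.49 to 2.48) in the lung, while ACTA2 was 0.0968-fold (0.0727 to 0.131). On the collagen side MYL9 was then 1.05-fold (0.890 to 1.24), ACTA2 0.918-fold (0.835 to 1.01) and LMOD1 0.679-fold (0.369 to 1.37). That aorta collagen side was a mixture. ACTA2 was at 1890 CPM in its 31 cells under 1% mitochondrial UMIs and 806 CPM in its 26 others, and MYL9 at 313 and 482 CPM. The pooled ratios of MYL9 and ACTA2 therefore do not show that the libraries were alike. As each tissue was 1 library, tissue, animal, culture and depth cannot be told apart.

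The levels on the PECAM1 side were followed over cells of increasing depth. In the lung, TAGLN was at 584 CPM (539 to 631) in the 352 cells under 5000 UMIs, 881 CPM (869 to 894) in those from 5000 to 10000, 1035 CPM (1023 to 1048) up to 20000 and 917 CPM (881 to 955) in the 110 cells beyond. ACTA2 stayed between 3.89 and 9.16 CPM over the same cells. In the aorta, TAGLN went the other way, from 756 CPM (604 to 935) in the 41 cells under 5000 UMIs to 192 CPM (143 to 252), 113 CPM (85.2 to 147) and 241 CPM (236 to 246). ACTA2 was at 436 CPM (322 to 576) in those 41 shallow cells, 37.6 CPM (18.0 to 69.1) in the next 35, 0 in the next 33 and 2.80 CPM (2.27 to 3.41) in the 595 deepest. TPM1 moved by less, from 2926 CPM (2618 to 3260) to 1940 CPM (1819 to 2067). The ACTA2 of shallow PECAM1-side cells was thus found in the aorta and not at that level in the lung.

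**Figure D4:**
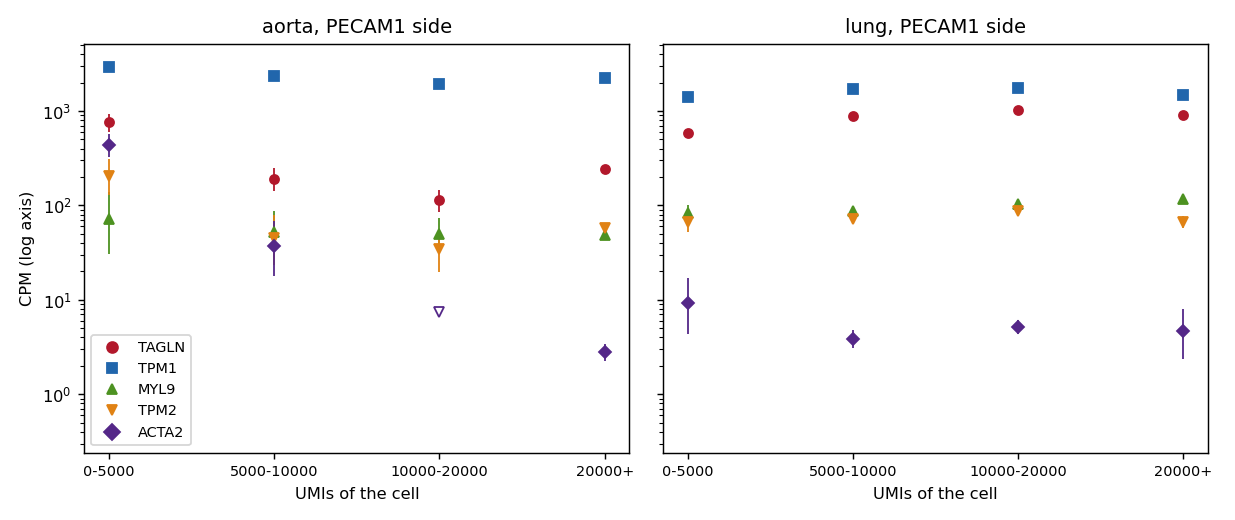
Levels of 5 genes on the PECAM1 side in cells of increasing total UMIs, in the aorta (left) and the lung (right), as CPM on a log axis with exact Poisson 95% intervals. The open triangle is ACTA2 with 0 UMIs, drawn at the upper end of its interval. In the aorta ACTA2 falls from 436 CPM in the shallowest cells to 2.80 CPM in the deepest, and in the lung it stays under 10 CPM.

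In the aorta cells within limits, most ACTA2 of the PECAM1 side lay in cells with hardly any mitochondrial UMIs. Of the 60 ACTA2 UMIs on the PECAM1 side within limits, 57 were in 5 cells, and each of the 5 had under 1% mitochondrial UMIs. These 5 cells had a median of 1 PECAM1 UMI and no UMI of COL1A1, COL1A2 or CDH5, the cadherin of endothelial junctions. Their ACTA2 was at 2820 CPM, TAGLN at 3562, TPM2 at 1088 and ACTG2 at 544. The 96 PECAM1-side cells with 1% mitochondrial UMIs or more had 2 ACTA2 UMIs, 1.74 CPM (0.210 to 6.28), and among cells from 1% to 30% the ratio of ACTA2 between sides rose to 463. The 63 cells with no UMI of the 3 genes carried the members too, with ACTA2 at 1477 CPM (1312 to 1656), TAGLN at 1974 CPM (1783 to 2180) and TPM2 at 1309 CPM (1154 to 1479). Among the 14 cells on neither side with 1% or more, which include any with equal UMIs, 6 had ACTA2, and together the 14 had it at 2776 CPM (2317 to 3298). In 27 of the 63 cells ACTA2 was found, and CSPG4 and PDGFRB had 0 UMIs in all 63.

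Within the aorta collagen side, ACTA2, TAGLN and TPM2 were higher and COL1A1 and COL1A2 lower in cells with few mitochondrial UMIs. On the aorta collagen side within limits, the 31 cells under 1% had ACTA2 at 1890 CPM (1681 to 2118) and the 26 other cells at 806 CPM (692 to 933). COL1A1 went from 5293 CPM (4995 to 5604) in the other cells to 243 CPM (172 to 333) in the cells under 1%, and COL1A2 from 5298 to 268 CPM. TAGLN was at 2784 CPM (2528 to 3058) under 1% and 1382 CPM (1232 to 1545) otherwise, and TPM2 at 1660 and 990 CPM. MYL9 went the other way, at 313 CPM (231 to 414) under 1% and 482 CPM (395 to 582) otherwise. In the lung, where only 6 collagen-side cells were under 1%, ACTA2 was at 334 CPM (90.9 to 855) in them, from 4 UMIs, and 1154 CPM (1120 to 1188) in the others, and COL1A1 at 1836 and 5250 CPM. Over all 110 aorta cells under 1%, whatever their side, ACTA2 was at 1271 CPM (1164 to 1386), against 218 CPM (195 to 244) in the 136 others. COL1A1 was at 98.5 CPM (70.4 to 134) in the former, compared with 846 CPM (798 to 895). PECAM1 also differed, with 98.5 CPM (70.4 to 134) in the cells under 1% and 999 CPM (948 to 1053) in the others, and CDH5 was at 17.2 against 204 CPM. TPM1 was at 2702 CPM (2545 to 2867) against 2015 CPM (1941 to 2090). The aorta cells under 1% were thus low in all 3 genes that made the sides and high in ACTA2 and TAGLN, and the part of RNA quality in their levels was not tested.

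**Figure D5:**
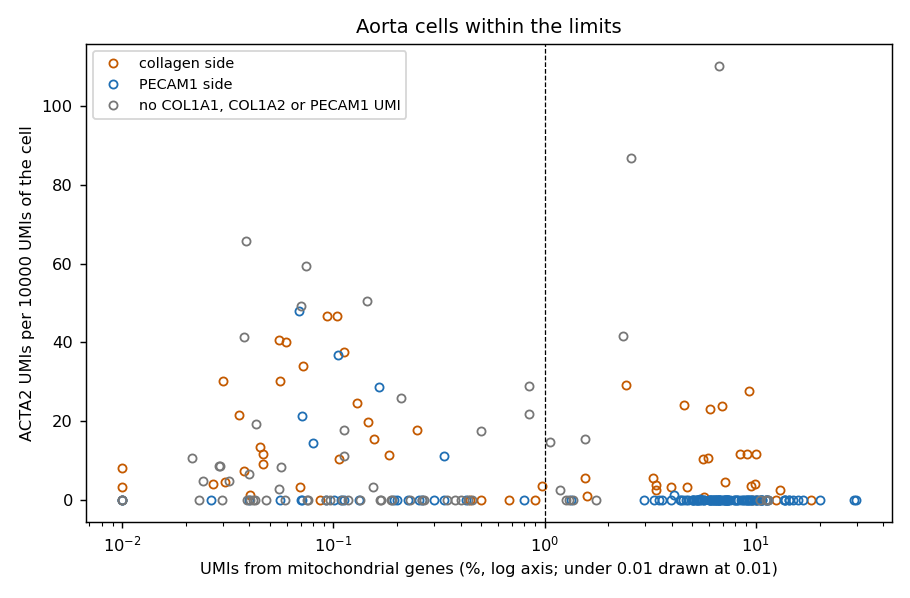
ACTA2 UMIs per 10000 UMIs of the cell against the share of mitochondrial UMIs (log axis, shares under 0.01% drawn at 0.01%) in the aorta cells within limits. Circles are cells of the collagen side (orange), the PECAM1 side (blue) and with no UMI of COL1A1, COL1A2 or PECAM1 (grey), and the dashed line is 1%. To the right of the line only collagen-side and grey cells lie clearly above 0, and to its left blue cells do as well.

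Several confined genes were often found in the same collagen-side cell. Of ACTA2, ACTG2, CNN1 and LMOD1, at least 2 were found in 117 of 128 deep aorta collagen-side cells (91.4%) and in 6 of 581 PECAM1-side cells (1.03%). In the lung this held for 199 of 349 (57.0%) and 10 of 5286 (0.189%) cells, and in the aorta within limits for 30 of 57 (52.6%) and 3 of 123 (2.44%). These genes were called confined from the same sides, so the contrast between sides was largely fixed beforehand. No share expected from the single genes was computed. Alone, ACTA2, CNN1, LMOD1 and ACTG2 were in 96.9%, 80.5%, 71.1% and 64.8% of the deep aorta collagen-side cells. TPM2, also confined, was not part of this count, and was in 59.4% of the deep aorta PECAM1-side cells. Within the collagen side, CNN1 and LMOD1 were found more often in cells with ACTG2. In the deep aorta all 83 cells with ACTG2 had ACTA2, but so had 41 of the 45 cells without ACTG2 (91.1%). CNN1 was in 89.2% of the 83 cells and 64.4% of the 45. Those 45 were as deep, at a median of 67479 against 64488 UMIs. LMOD1 went the same way, in 80.7% and 53.3%. In the lung, where the medians were 10605 and 10724 UMIs, CNN1 was in 50.3% of cells with ACTG2 and 22.3% of those without. ACTA2 was there in 142 of 165 cells with ACTG2 (86.1%) and 130 of 184 without (70.7%). DES did not follow this order, since ACTG2 was in 45.2% of the 42 lung cells with DES and 47.6% of the 307 without.

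ACTA2 was also the least evenly spread of the abundant members. In the lung collagen side 34 of 349 cells held at least 50% of its UMIs, against 94 for TAGLN, 93 for TPM2 and 99 for TPM1. Per cell, ACTA2 in the lung had a lower quartile of 88.0 CPM, a median of 382 CPM and a highest value of 11859 CPM. Of the 128 deep aorta cells, 25 held at least 50% of the ACTA2 UMIs, against 40 for TAGLN and 43 for TPM2, and the median cell had 1145 CPM. In the aorta within limits these were 8, 9 and 10 of 57 cells, a smaller contrast. The 77 lung collagen-side cells with no ACTA2 UMI still had TAGLN at 1208 CPM, TPM2 at 933 and TPM1 at 1467, and COL1A1 at 5177 CPM, against 2607, 1419, 2023 and 5169 CPM in the 205 cells with 3 or more ACTA2 UMIs. So COL1A1 was alike in both, while TAGLN and TPM2 were higher with ACTA2.

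Across collagen-side cells, levels of ACTA2 rose with those of TPM2 (r = 0.688) and TAGLN (r = 0.681) in the 128 deep aorta cells. For the 349 lung cells r was lower, at 0.394 with TPM2 and 0.572 with TAGLN. In the 57 aorta cells within limits r was 0.396 with TPM2 and 0.607 with TAGLN. These are Pearson correlations of log-normalized counts over cells that share a library and its depth, given as descriptions. DES and ACTA2 had r = 0.188 in the lung. The genes outside the 10 whose level was most like the summed members were TPM4 (r = 0.643), TMSB4X (0.606), NEXN (0.584), IGFBP7 (0.582) and OSTF1 (0.571) in the deep aorta, among 2977 genes at 50 CPM or more. In the lung they were ACTG1 (0.532), TPM4 (0.502), IGFBP7 (0.480), SELENOM (0.476) and BGN (0.438), among 2819 genes. TPM4, a non-muscle tropomyosin, and IGFBP7, a secreted binding protein of growth factors, were on both lists. The number of UMIs of the cell itself had r = 0.186 in the deep aorta and 0.233 in the lung.

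The non-muscle counterparts of the members were mostly general, as were most genes. Of 11 measured, 10, 9 and 10 were within 2-fold in the aorta within limits, the deep aorta and the lung. Their median ratios were 1.54, 1.27 and 1.24. Among all genes at the floor, 68.0%, 79.9% and 84.0% were within 2-fold. ACTB and ACTG1, the actins of every cell, had ratios of 1.52 and 1.55 in the deep aorta and 1.31 and 1.31 in the lung, beside 543 and 246 for ACTA2. CNN2 and CNN3 were at 0.95 and 0.79 in the deep aorta beside 240 for CNN1, and TMOD3, a tropomodulin related to LMOD1, was at 0.73. MYL6 and MYL12A were at 1.27 and 0.91, and TPM3 at 1.05. TPM4 was at 2.17, 2.10 and 2.20 in the deep aorta, the aorta within limits and the lung, and MYH9, the non-muscle myosin heavy chain, was at 2.18 in the deep aorta.

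The wider smooth muscle programme followed the 10 genes only in part. Of 30 measured partners, 21, 21 and 20 reached the floor. Confined were 2, 1 and 2 of these, graded 4, 5 and 4, and general 13, 13 and 12, with 2 on the PECAM1 side in each. Among all genes at the floor, 1.17%, 1.43% and 1.82% were confined and 68.0%, 79.9% and 84.0% general. The PECAM1 side had 1327 of 6342, 787 of 6289 and 578 of 6048 of them. By level, the leading partners were CALD1, FLNA, CRIM1, RHOA, PDLIM7 and CSRP1. CALD1, which encodes caldesmon, was at 822 against 763 CPM in the deep aorta, and FLNA, a filamin that links actin filaments, was 2.55-fold and 2.59-fold higher on the collagen side of the deep aorta and the lung. RHOA, PDLIM7 and CSRP1 had ratios of 1.09, 1.66 and 1.59 in the deep aorta. The partners named next were chosen after their values were seen. ITGA8, an integrin of smooth muscle and pericytes, was confined in all 3, with ratios of 985 (336 to 4789) in the deep aorta and 397 (213 to 837) in the lung and at least 25.1 in the aorta within limits. NEXN, an actin-binding protein, had ratios of 5.71, 8.74 and 12.5 in the aorta within limits, the deep aorta and the lung, and FHL2 reached 16.4 in the aorta within limits from 10 against 2 UMIs. SMTN, the smoothelin gene, was at 3.72 and 2.42 in the deep aorta and the lung.

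PPP1R14A and CRIM1 were the 2 partners on the PECAM1 side in all 3 groups of cells. PPP1R14A encodes CPI-17, an inhibitor of myosin phosphatase that sustains contraction of smooth muscle. It was at 180 CPM on the PECAM1 side and 8.24 CPM on the collagen side of the deep aorta, a ratio of 0.0458 (0.0358 to 0.0578), and at 476 against 59.7 CPM in the lung, a ratio of 0.125 (0.110 to 0.143). CRIM1, a membrane protein, had ratios of 0.242 (0.229 to 0.256) and 0.448 (0.421 to 0.475). Of the 8 regulators 4, 4 and 5 reached the floor and none was confined, as was true of most genes. General were 3, 2 and 3 of these, 1, 2 and 1 were on the PECAM1 side, and 1 was graded in the lung. Among all genes at the floor, 1327 of 6342, 787 of 6289 and 578 of 6048 were on the PECAM1 side. MYOCD, which encodes myocardin, had 10 and 3 UMIs on the sides of the deep aorta and 4 and 0 in the lung, or 1.14 and 1.02 CPM on the collagen side. SRF, its partner on the CArG box, was at 5.04 against 3.58 CPM in the deep aorta. KCNMB1, a potassium channel subunit of smooth muscle, had 0 UMIs on both sides of all 3 groups.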

How the data were processed

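Single-cell RNA-seq of 2 libraries, cultured aorta ECs and cultured lung ECs, was re-analysed. The authors deposited counts (UMIs per gene and cell) made with Cell Ranger 3.0.2 on Sscrofa11.1 with the 3′ v3 chemistry, without normalization and before their limits on cells. Values were whole numbers. The 10 members and all gene lists were chosen with earlier results of these data known.

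Cells were kept within the stated limits (more than 200 and fewer than 5000 genes, under 30% mitochondrial UMIs over 12 genes) or as deep cells with 5000 genes or more. Clusters and doublet callers were not used. Possible doublets, cells with 3 or more UMIs of both PECAM1 and COL1A1 plus COL1A2, were left out as an alternative. They were 14 of 246 aorta cells within limits, 276 of 709 deep aorta cells and 76 of 5683 lung cells. The cut of 3 UMIs was the same at every depth, so deep cells met it more easily. Counts were summed per side and divided by the side's UMIs. A fold against 0 UMIs uses 3 counts and is written as at least, and no fold is given where both sides had 3 UMIs or fewer. Ratios over all genes left out COL1A1, COL1A2 and PECAM1. Correlations used log of 1 plus UMIs per 10000. Depth was 46080859 UMIs in the aorta and 57213236 in the lung. The fold calculation was tested on simulated data. Python 3.11.15, numpy 2.4.6, pandas 2.3.3, scipy 1.17.1 and matplotlib 3.10.9 were used.

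All 10 members are named. Other genes were the fixed lists by counts with the 6 partners of highest mean CPM, the non-muscle counterparts, and the 5 genes most correlated with the summed members per library. Gene positions and windows come from RefSeq by symbol. The window of 1 member is not reported here. Symbols for genes given only by an Ensembl identifier came from a table of gene names, and 6774 genes kept their identifier. FHL1, TAGLN2, MYL12B, MYH10, MYH6, MSLN and UPK3B, which were on the lists, were not analysed here.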

Additional observations from a re-analysis of the deposited data

Results flagged for a closer look

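TPM1 was flagged because its ratio between the collagen and the PECAM1 side went opposite ways in the libraries, at 0.813 in the deep aorta and 1.09 in the lung, a difference that was not tested. ACTA2 was flagged in cells that no comparison used. It was at 130 CPM (88.7 to 185) in the 7 deep lung cells of the collagen side, where TAGLN was at 1107 CPM and the ratios of ACTA2 and TPM2 to the PECAM1 side were 19.3 and 8.15, and 6 of the 7 cells were possible doublets. Among cells with 30% mitochondrial UMIs or more, or 200 genes or fewer, it was at 392 CPM (307 to 495) in 29 collagen-side cells of the aorta and 297 CPM (143 to 547) in 26 of the lung, while the PECAM1 sides had 3 and 0 UMIs of it.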

How the results depend on the processing

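The number of confined members was recomputed under 36 combinations of alternative and group of cells, and it stayed within 1.5-fold of its value in each. It was 4 to 7 in the aorta within limits, 4 to 7 in the deep aorta and 4 to 6 in the lung, where it had been 5, 5 and 6. The alternatives were the margin of the split, either collagen gene alone, the limits on genes and on mitochondrial UMIs, means over cells, thinning to 5200 UMIs, a ratio of 5, a floor of 50 CPM or none, possible doublets left out and, added after the data had been seen, leukocyte cells left out. Of 240 ratios of single members none changed direction from a call and 5 changed class. In the aorta within limits ACTA2 fell to 9.63 as a mean over cells, ACTG2 to 5.65 and TAGLN rose to 10.3 after thinning, and LMOD1 was at least 8.63 between 1% and 30% mitochondrial UMIs. In the deep aorta TAGLN rose to 10.0 without possible doublets. ACTA2 in the aorta within limits ranged from 9.63 to 522, so its size there depended on which cells were kept. In the deep aorta and the lung it ranged from 523 to 667 and from 228 to 272. MYH11 gave no ratio after thinning, or in the lung without possible doublets, because it then had 0 UMIs on the collagen side. The share of all genes called confined ranged with the floor, from 1.58% at 50 CPM to 4.20% with none in the lung.

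No paired analysis was possible because each tissue had 1 library, and no replicate was there to be left out. Depth limits CNN1 and LMOD1 in the aorta within limits, where the PECAM1 side had 1 and 2 UMIs of them. It also limits MYH11 and DES there, with 2 UMIs or fewer on either side. The MYH11 ratios rest on 5 collagen-side UMIs in the deep aorta and 1 in the lung. On the deep aorta collagen side MYH11 and DES were low at high depth, at 0.572 CPM (0.186 to 1.34) and 0.229 CPM (0.0277 to 0.827).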
